A study of Mus musculus with 6 samples.

Results

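Cytochrome c oxidase (complex IV) is the last enzyme of the mitochondrial respiratory chain. It was followed here through every probe set annotated to exactly 1 gene whose symbol begins with Cox and a digit, or that is Surf1, Sco1, Sco2, Coa3, Coa5, Coa6, Cmc1 or Pet100. This gave 65 probe sets for 33 genes, out of 45037 probe sets other than Affymetrix controls. Quadriceps muscle, a thigh muscle, was taken from C57/BL6 males aged 8 weeks. The 3 wild-type mice carried no transgene, and the 3 ERRγ-transgenic mice carried ERRγ (Esrrg), an orphan nuclear receptor known for its role in energy metabolism, driven by the skeletal actin promoter of striated muscle fibres. The genotype label writes this promoter with a prefix h, and whether the mice came from 1 founder line is not given in the sources used here. Each mouse gave 1 Affymetrix array, and the titles call the mice of a genotype biological replicates.

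The enzyme takes electrons from cytochrome c, passes them to oxygen and pumps protons across the inner membrane. Its catalytic core is encoded by mitochondrial DNA and carries heme A and copper, while the subunits around it are encoded in the nucleus. Some nuclear subunits exist as a ubiquitous isoform and as an isoform of heart and skeletal muscle, and a set of assembly factors makes heme A, delivers copper and inserts the core subunits into the membrane. Muscle fibres rich in mitochondria contain more of the enzyme than glycolytic fibres.

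The targeted gene differed between the genotypes on every array. The brightest Esrrg probe set gave signals of 24.1 to 71.6 in wild-type and 12697 to 14427 in transgenic muscle, and the other probe sets of Esrrg did not pass the test. One array stood apart: wild-type 3 had high signals of adipocyte genes, of Cox6a1 and of Cox8a, and values without it are given for the genes it moved most. Of 8 muscle fibre markers, myoglobin (Mb) rose and 7 did not pass, and all 5 cardiac markers with a probe set lay below the filter on low signal. Of 8 endothelial markers, 6 rose, with summed signals of 2128 to 2348 in wild-type and 3752 to 4179 in transgenic muscle, and the part of this difference in the results below was not tested. In a whole muscle, more RNA of a gene per cell and more cells that express it cannot be told apart.

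Cytochrome c oxidase genes were higher in transgenic muscle at 10 of the 31 genes tested, and none was lower. The genes called were the structural subunits Cox4i1, Cox5b, Cox6a2, Cox6b1, Cox6c and Cox7a2, the subunit relative Cox7a2l, and the assembly factors Sco2, Pet100 and Cox11. Their ratios of mean signals lay between 1.24 and 2.39. Each gene was represented by its brightest probe set, and a gene was called at a limma adjusted p under 0.05, with the difference taken on the log2(signal + 16) scale. By that rule 7.65% of all 12529 genes tested were called higher and 5.75% lower, and the median difference was 0.28 over the 31 cytochrome c oxidase genes against 0.03 over all genes tested. The signal ranges of the genotypes did not overlap, with transgenic muscle higher, at 16 of the 31 genes, against 18.6% of all genes tested. By probe set, 20 of 53 tested were called higher and 0 lower, where 6.38% of all probe sets were called higher. The count of 10 genes depended on single arrays: it was 4 when wild-type 1 or transgenic 1 was left out, 5 when wild-type 2, transgenic 2 or transgenic 3 was left out, and 9 when wild-type 3 was left out. Cox4i1 and Cox6b1 were called under every alternative run.

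**Figure D1:**
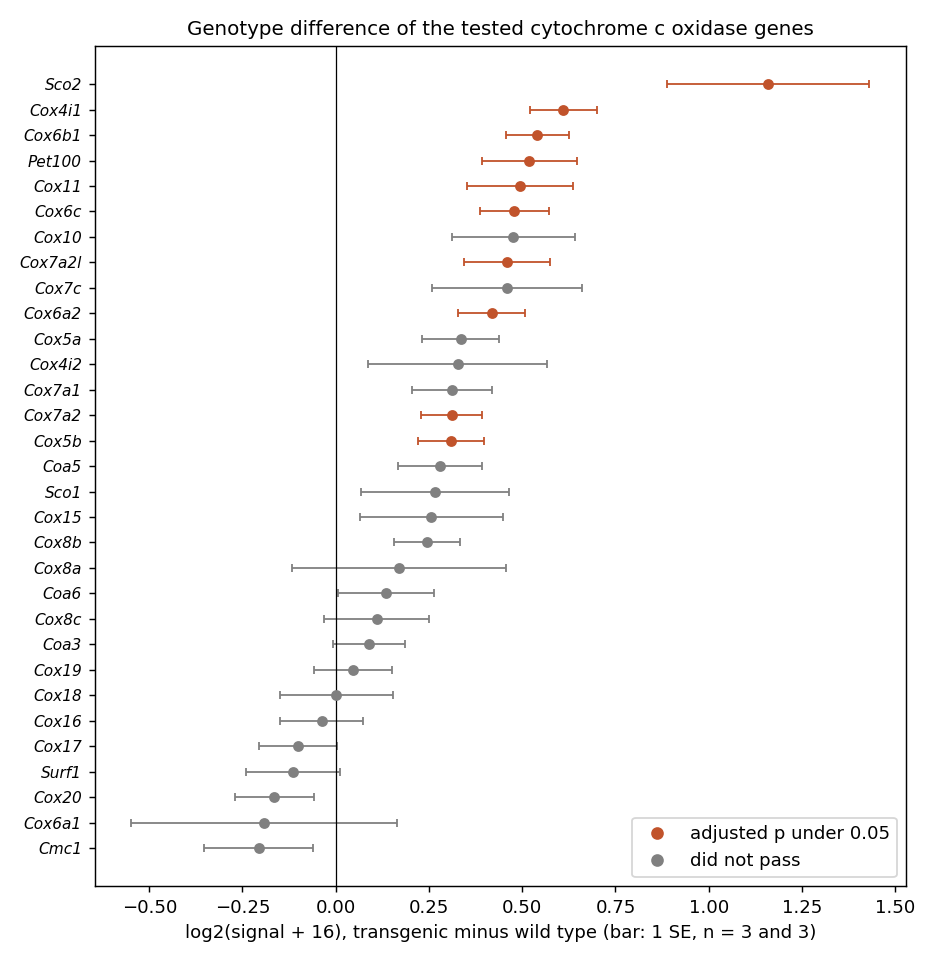
Difference between genotypes on the log2(signal + 16) scale for the 31 tested cytochrome c oxidase genes (vertical axis), with 1 SE and n = 3 mice per genotype. The 10 genes called, in orange, lie between 0.31 (Cox5b) and 1.16 (Sco2), while the 6 genes below 0 did not pass.

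The largest differences among the subunits were those of Cox4i1, a regulatory subunit that binds adenine nucleotides, and Cox6b1, which joins the monomers of the enzyme on the intermembrane side. Cox4i1 measured 8628, 8789 and 7851 in the wild-type mice against 12425, 13774 and 12404 in the transgenic mice. Cox6b1 had wild-type signals of 10435, 11140 and 11206 and transgenic signals of 15898, 16596 and 15200. For both genes the lowest transgenic array lay above the highest wild-type array. The difference for Cox4i1 was 0.61 (SE 0.09, limma adjusted p = 0.00183, higher in 3 of 3 transgenic mice than in any wild-type mouse). That for Cox6b1 was 0.54 (SE 0.08, limma adjusted p = 0.00242), and its dimmer probe set gave 0.60.

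Cox6c, a small membrane subunit, went from 9439 ± 681.2 to 13147 ± 781.4 (SD, n = 3 each), a difference of 0.48 (SE 0.09, limma adjusted p = 0.00789), while its dimmer probe set overlapped between genotypes and did not pass (0.27). Cox5b, the zinc-binding subunit, rose at 4 of its 5 tested probe sets, by 0.31 to 0.56 at those 4. Cox5a, which binds the same face of the enzyme as Cox5b, measured 11683, 11047 and 9297 in the wild-type mice against 12996, 14267 and 12989 in the transgenic mice. The ranges of Cox5a did not overlap, yet it did not pass (0.33, SE 0.10, limma adjusted p = 0.0643), nor did its other probe sets, at 0.13 and 0.27. Cox7a2l, which resembles Cox7a2 and is known as a factor in supercomplexes of complexes III and IV, rose at all 3 of its probe sets, by 0.37 to 0.61. These are RNA signals, and whether its protein acts in supercomplexes in these mice was not tested.

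Cox7c and the isoforms best known from lung or testis had low signals. Cox7c, a small subunit, had wild-type signals of 69.0, 84.4 and 100.8 and transgenic signals of 150.4, 108.1 and 109.2 at its brighter probe set and did not pass (limma adjusted p = 0.183). Its other probe set lay below the filter, with no signal above 33.4. How well either probe set detects Cox7c RNA was not examined, so these signals do not show that Cox7c is scarce in muscle. Cox4i2, the isoform of Cox4 best known from lung, gave 62.9 to 114.8 in wild-type and 90.0 to 148.3 in transgenic muscle, which overlapped. The testis isoforms Cox6b2 and Cox7b2 lay below the filter, with no signal above 49.2, and Cox8c, also of testis, gave 154.5 to 168.1 and 168.3 to 188.6. The testis isoforms thus included no gene called. Cox7b and Cox14 have no probe set annotated to them alone and were not analysed here, nor were the subunits encoded by mitochondrial DNA.

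**Figure D2:**
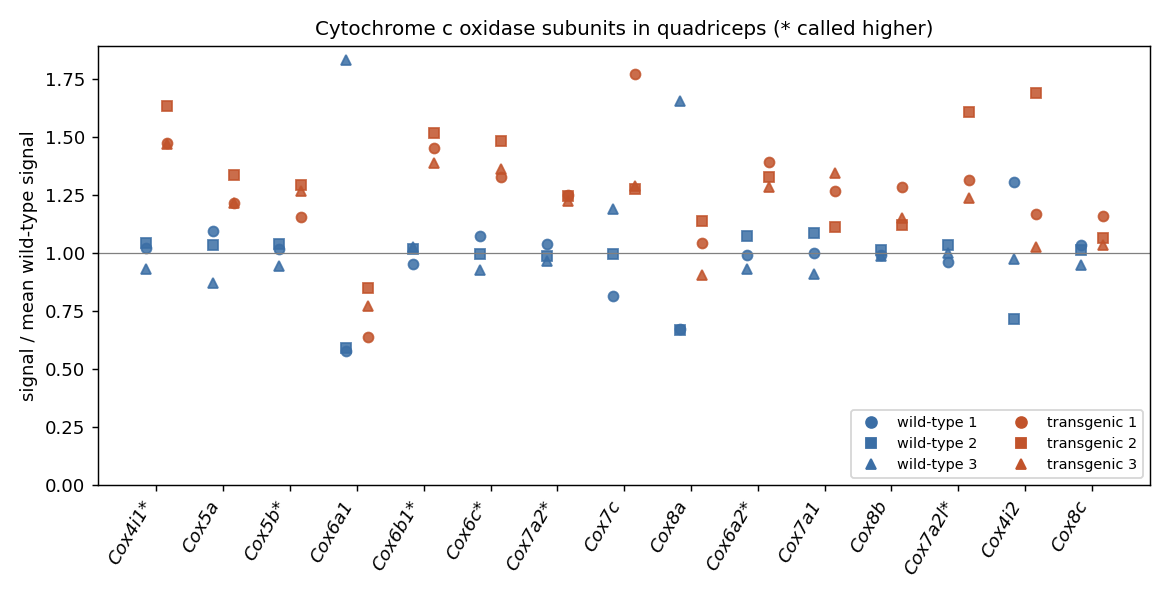
Signal of each array divided by the mean wild-type signal of the same gene, for the 15 tested subunit genes, with 1 symbol per mouse (wild-type blue, transgenic orange) and genes called higher marked by *. All 3 transgenic mice lie above all 3 wild-type mice for 12 of the 15 genes, against 18.6% of all genes tested, and wild-type 3 stands apart for Cox6a1 and Cox8a.

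For subunits 6a, 7a and 8, the isoform of heart and skeletal muscle (Cox6a2, Cox7a1 and Cox8b) can be set against the ubiquitous isoform (Cox6a1, Cox7a2 and Cox8a). Cox6a2 measured 11004, 11914 and 10342 in the wild-type mice against 15444, 14728 and 14244 in the transgenic mice. It rose by 0.42 (SE 0.09, limma adjusted p = 0.0131), and by 0.71 at its dimmer probe set. Cox7a1 had wild-type signals of 5022, 5439 and 4553 and transgenic signals of 6346, 5567 and 6744. Cox8b measured 9975, 10181 and 9928 in the wild-type mice against 12900, 11253 and 11573 in the transgenic mice. Neither Cox7a1 nor Cox8b overlapped between genotypes, and neither passed, with differences of 0.31 (SE 0.11, limma adjusted p = 0.0883) and 0.25 (SE 0.09, limma adjusted p = 0.104).

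Among the ubiquitous isoforms, Cox7a2 had wild-type signals of 11293, 10728 and 10498 and transgenic signals of 13576, 13496 and 13278. It rose by 0.31 (SE 0.08, limma adjusted p = 0.0337), and by 0.41 at its dimmer probe set. Cox6a1 measured 1557, 1589 and 4933 in the wild-type mice against 1719, 2289 and 2079 in the transgenic mice. Cox8a had wild-type signals of 352.8, 349.7 and 868.7 and transgenic signals of 548.1, 595.8 and 475.5. At these brightest probe sets of Cox6a1 and Cox8a, wild-type 3 lay above all other arrays. The transgenic arrays lay between wild-type 3 and the other wild-type arrays. Neither gene passed over all 6 arrays, at -0.19 (SE 0.36, limma adjusted p = 0.783) and 0.17 (SE 0.29, limma adjusted p = 0.762). At the other tested Cox8a probe set, transgenic 3 (418.3) lay below every wild-type array, and the difference was -0.15 and did not pass.

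The stretches upstream of the annotated transcript starts are shown for the isoforms with an entry in the RefSeq promoter table (build GRCm38.p6), since isoforms of a pair differ there. Each run is the 250 bases before the start, read 5′ to 3′ on the gene's strand, with capitals at matches to any of 5 motifs searched on both strands: AAGGTCA (ERR core site), CCGGAAG (ETS site, bound by GABP), GCGCANGCG (NRF1), CTANNNNTAG (MEF2) and CAGCTG (myogenic E-box). The windows are chr7:30183921-30184170 (plus strand) for Cox7a1, chr9:79759854-79760103 (minus) for Cox7a2, chr7:140900447-140900696 (minus) for Cox8b, chr19:7217617-7217866 (minus) for Cox8a and chr5:115348959-115349208 (minus) for Cox6a1.
Cox7a1: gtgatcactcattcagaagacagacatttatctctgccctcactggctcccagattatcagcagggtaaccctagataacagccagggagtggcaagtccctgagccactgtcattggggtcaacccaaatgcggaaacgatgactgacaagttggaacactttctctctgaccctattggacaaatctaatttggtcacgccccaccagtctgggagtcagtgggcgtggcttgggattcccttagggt
Cox7a2: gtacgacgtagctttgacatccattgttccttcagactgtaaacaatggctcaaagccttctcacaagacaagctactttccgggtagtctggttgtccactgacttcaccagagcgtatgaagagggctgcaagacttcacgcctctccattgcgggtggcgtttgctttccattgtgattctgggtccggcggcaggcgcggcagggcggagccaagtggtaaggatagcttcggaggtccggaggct
Cox8b: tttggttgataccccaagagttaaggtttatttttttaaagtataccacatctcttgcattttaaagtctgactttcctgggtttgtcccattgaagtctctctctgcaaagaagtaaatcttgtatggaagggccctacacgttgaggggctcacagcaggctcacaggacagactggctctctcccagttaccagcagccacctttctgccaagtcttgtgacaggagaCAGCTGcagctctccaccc
Cox8a: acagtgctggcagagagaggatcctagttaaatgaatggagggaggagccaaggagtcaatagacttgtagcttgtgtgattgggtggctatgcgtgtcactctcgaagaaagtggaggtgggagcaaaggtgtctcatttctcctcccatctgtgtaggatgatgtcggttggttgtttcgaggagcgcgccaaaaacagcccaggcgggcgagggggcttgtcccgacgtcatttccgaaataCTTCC
Cox6a1: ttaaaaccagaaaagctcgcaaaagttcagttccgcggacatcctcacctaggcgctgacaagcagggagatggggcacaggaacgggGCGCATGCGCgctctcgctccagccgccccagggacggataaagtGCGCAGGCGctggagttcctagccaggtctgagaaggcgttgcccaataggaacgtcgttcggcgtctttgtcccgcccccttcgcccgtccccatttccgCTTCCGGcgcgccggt

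In these stretches the ubiquitous isoforms Cox6a1 and Cox8a carry the ETS site next to the start, the one in Cox8a running across it, and Cox6a1 also has 3 NRF1 matches, 2 of which overlap. The muscle isoform Cox8b carries a myogenic E-box, and Cox7a1 and Cox7a2 carry none of the 5 motifs. Over the whole window of 250 bases before to 50 after the start, the ETS site was found in 11 of the 25 cytochrome c oxidase genes matched in the table, against 9.93% of all 27025 genes in it, a gene counting if any of its windows matched. Of the 7 matched genes that were called higher, 2 (Cox6b1 and Pet100) carry it. The called genes Cox4i1, Cox6a2 and Cox6c had no entry in the promoter table and were not searched, so the motif counts do not cover them. The ERR core site was found in 0 of the 25 genes, against 5.38% of all genes, and NRF1 in 3 genes against 7.03%. The myogenic E-box was found in 2 genes against 18.3%, and MEF2 in Cox5b alone against 4.23%.

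Unequal change within a pair was tested with the ratio of the isoforms on each array, taken as a difference of log2(signal + 16). Since the isoforms have different probes, only the change of this ratio between genotypes is read, not its level. For Cox7a1 over Cox7a2 this value was -1.17, -0.98 and -1.20 in the wild-type group against -1.10, -1.28 and -0.98 in the transgenic group. The groups overlapped, the change was 0.00 (SE 0.11), and the exact two-sided permutation test gave p = 1. With the dimmer Cox7a2 probe set the change was -0.10, and -0.15 without wild-type 3. For Cox6a2 over Cox6a1 it was 2.81, 2.89 and 1.07 in the wild-type group against 3.16, 2.68 and 2.77 in the transgenic group. This change was 0.61 (SE 0.61, exact permutation p = 0.6), and it was 0.02 without wild-type 3. With the dimmer Cox6a2 probe set it was 0.90, and 0.31 without wild-type 3. For Cox8b over Cox8a the values were 4.76, 4.80 and 3.49 in the wild-type group against 4.52, 4.20 and 4.56 in the transgenic group, a change of 0.08 (SE 0.44, exact permutation p = 1) that was -0.35 without wild-type 3. With the other tested Cox8a probe set the change was 0.39, and 0.06 without wild-type 3, so the sign without that array turned with the probe set. With 3 pairs tested, the Benjamini-Hochberg adjusted exact p was 1 for each, and 3 mice against 3 allow no exact p below 0.1. This test could therefore not have called a shift between ubiquitous and muscle isoforms in any pair, and its p-values do not show that the isoforms changed alike.

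The array of wild-type 3 differed from the other wild-type arrays in its adipocyte genes as well. Ucp1, the uncoupling protein of brown adipocytes, measured 40.5, 15.7 and 1596 in the wild-type mice against 44.3, 117.7 and 20.9 in the transgenic mice. Cidea, a lipid droplet protein abundant in brown adipocytes, had wild-type signals of 95.6, 40.9 and 2561 and transgenic signals of 46.8, 537.3 and 56.5. Wild-type 3 was the highest array for both genes, and transgenic 2 the next. The other 4 brown adipocyte markers were dim, with 146 as their highest signal, and they were split on wild-type 3. Among the wild-type arrays, Prdm16 (122.7) and Dio2 (69.7) were highest there, while Elovl3 (25.9) and Zic1 (29.8) were lowest. The summed signal of all 6 was 282.8 to 4405 in wild-type and 347 to 891.8 in transgenic muscle. On wild-type 3, Ucp1 and Cidea made up most of this sum. The 6 adipocyte markers with a probe set summed to 11586 to 26836 in wild-type and 12745 to 17473 in transgenic muscle, again with wild-type 3 and transgenic 2 the highest of their genotypes.

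On wild-type 3, Cox6a1 was 3.14 times and Cox8a 2.47 times the average of wild-type 1 and 2, and the second tested probe sets of these genes gave 3.28 and 1.99. The muscle isoforms did not share this: wild-type 3 was the lowest wild-type array for Cox6a2, Cox7a1 and, narrowly (9928 against 9975), Cox8b. Nor was this particular to muscle isoforms. Wild-type 3 was also the lowest wild-type array for the ubiquitous Cox7a2 and, at their brightest probe sets, for Cox4i1, Cox5a, Cox5b and Cox6c. Transgenic 2 was the highest transgenic array for Cox6a1 and Cox8a, but this was not particular to them. At the brightest probe sets it was also the highest for Cox4i1, Cox5a, Cox5b, Cox6b1, Cox6c and Cox7a2l. The part of adipocyte RNA in these values was not tested. Without wild-type 3, Cox8a was called higher at its brighter probe set (0.59, SE 0.14, limma adjusted p = 0.0186) but not at its other tested probe set (0.17, adjusted p = 0.565). Cox6a1 turned to a positive difference of 0.35 that did not pass (SE 0.13, limma adjusted p = 0.104). Without this array Cox5b (0.27, limma adjusted p = 0.0703) and Cox11 (0.50, limma adjusted p = 0.0697) were no longer called, with differences close to those over all arrays. The 3 other Cox5b probe sets that passed over all arrays also passed without it.

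**Figure D3:**
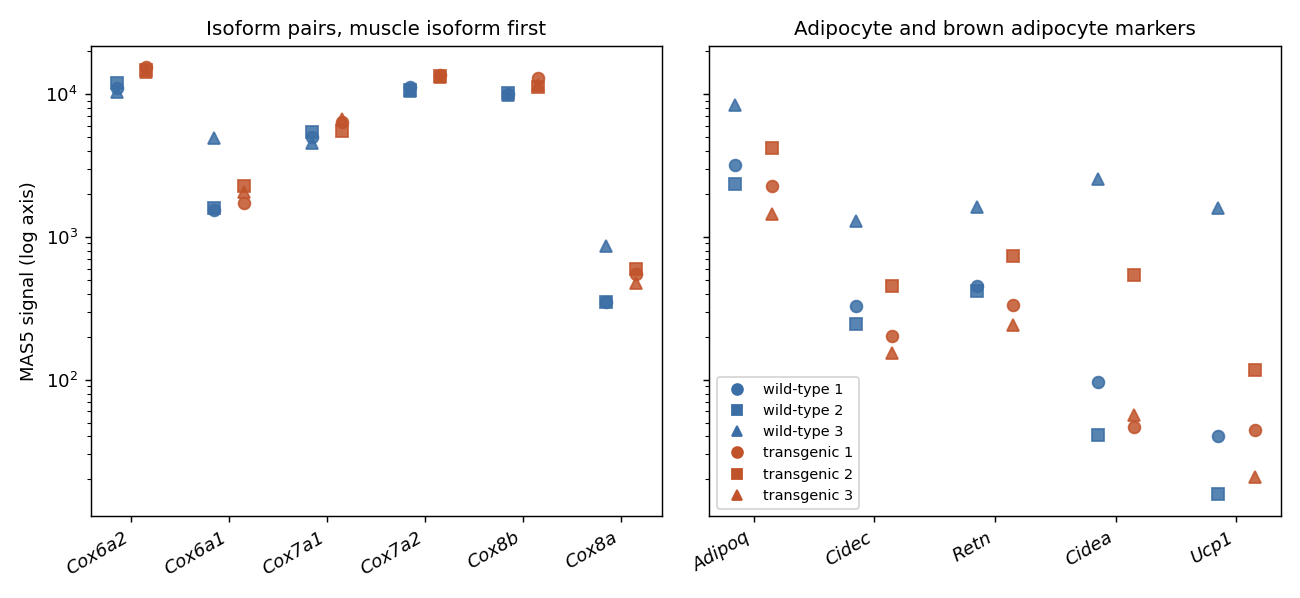
MAS5 signal on a log axis in each mouse for the isoform pairs (left) and for 5 markers (right), with wild-type in blue, transgenic in orange and 1 symbol per mouse number. The 5 were picked from 6 adipocyte and 6 brown adipocyte markers with a probe set. Wild-type 3 (blue triangle) is the highest array for Cox6a1 (4933), Cox8a (868.7) and the 5 markers drawn. It lies with or below the other wild-type arrays for Cox6a2, Cox7a1, Cox7a2 and Cox8b. Of the markers not drawn, Fabp4, Lep, Pparg and Dio2 were also highest on wild-type 3, Elovl3 and Zic1 were lowest there, and Prdm16 was highest on transgenic 3.

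Of the 16 assembly factors tested, 3 were called higher, against 7.65% of all genes tested, with a median difference of 0.11. Of the 15 subunits, Cox7a2l included, 7 were called higher, and the difference between these shares was not tested. Copper is delivered to the core subunits by Cox17, Sco1, Sco2 and Cox11, with help from Cox19 and Coa6. Sco2 measured 46.4, 114.8 and 89.0 in the wild-type mice against 147.7, 222.6 and 228.3 in the transgenic mice, the largest difference of all members at 1.16 (SE 0.27, limma adjusted p = 0.0201). Its signals were among the dimmer of the tested members. Its limma adjusted p was 0.0556 with wild-type 1 left out, 0.0786 with transgenic 2 left out and 0.0766 with transgenic 3 left out. The Sco2 gene overlaps Tymp and Ncaph2 in the RefSeq gene table. Of the 33 members, 13 overlap another protein-coding gene there, the called Cox11, Pet100, Cox6a2 and Cox7a2 among them. Cox11 had wild-type signals of 991.1, 1201 and 1096 and transgenic signals of 1426, 1349 and 1920, with a difference of 0.49 (SE 0.14, limma adjusted p = 0.0486) just past the threshold. Leaving out an array ended the call of Cox11 except for transgenic 2, with adjusted p of 0.0697 to 0.170.

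The other copper factors did not pass. Cox17, the chaperone that hands copper to the others, measured 3638, 3662 and 3688 in the wild-type mice against 3087, 3905 and 3302 in the transgenic mice. Cox19, Coa6 and Sco1 differed by 0.05, 0.14 and 0.27, and each overlapped between genotypes. The SEs of Cox17 and Cox19 were 0.10 and 0.11.

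Heme A is made from heme by Cox10, which adds the farnesyl tail, and Cox15, which oxidises a methyl group. Cox10 had wild-type signals of 419.0, 446.7 and 307.0 and transgenic signals of 456.9, 579.9 and 604.3. Its ranges did not overlap and it did not pass (0.48, SE 0.16, limma adjusted p = 0.0924), and without wild-type 3, its lowest array, the difference was 0.32 (limma adjusted p = 0.207). The probe sets of Cox15 disagreed. The brightest measured 467.3, 469.5 and 714.1 in the wild-type mice against 642.4, 526.7 and 801.1 in the transgenic mice and did not pass (0.26, limma adjusted p = 0.443). Without wild-type 3 this probe set gave 0.45, with ranges that did not overlap, and still did not pass (limma adjusted p = 0.111). Another had wild-type signals of 348.5, 315.8 and 353.8 and transgenic signals of 478.6, 579.7 and 597.1 and rose by 0.67 (SE 0.13, limma adjusted p = 0.00738). A further one rose by 0.76 (SE 0.16, limma adjusted p = 0.0134), and the dimmest differed by 0.17 and did not pass. With all probe sets of each gene averaged, Cox15 was called higher. The Cox15 gene overlaps Entpd7 in the gene table.

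Among the remaining assembly factors, Pet100, an inner membrane protein that acts in biogenesis of the complex, measured 504.9, 427.4 and 568.9 in the wild-type mice against 735.6, 737.5 and 686.4 in the transgenic mice. It rose by 0.52 (SE 0.13, limma adjusted p = 0.0250), and leaving out any array but wild-type 3 raised its adjusted p to 0.0501 to 0.105. Surf1, which acts around heme A insertion and is mutated in Leigh syndrome, had wild-type signals of 446.8, 512.8 and 544.5 and transgenic signals of 479.9, 490.0 and 414.8. Coa3 and Cmc1, which hold newly made core subunit in the membrane, differed by 0.09 and -0.21. Cox16, Cox18 and Cox20, factors for another core subunit, differed by -0.04, 0.00 and -0.16, and Coa5 by 0.28. None of these 7 genes passed, and the genotypes overlapped for each of them. Of the 6 tested members with a negative difference, 5 were assembly factors (Cmc1, Cox16, Cox17, Cox20 and Surf1) and the other was Cox6a1. A positive difference was found at 11 of the 16 assembly factors, against 53.8% of all genes tested.

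**Figure D4:**
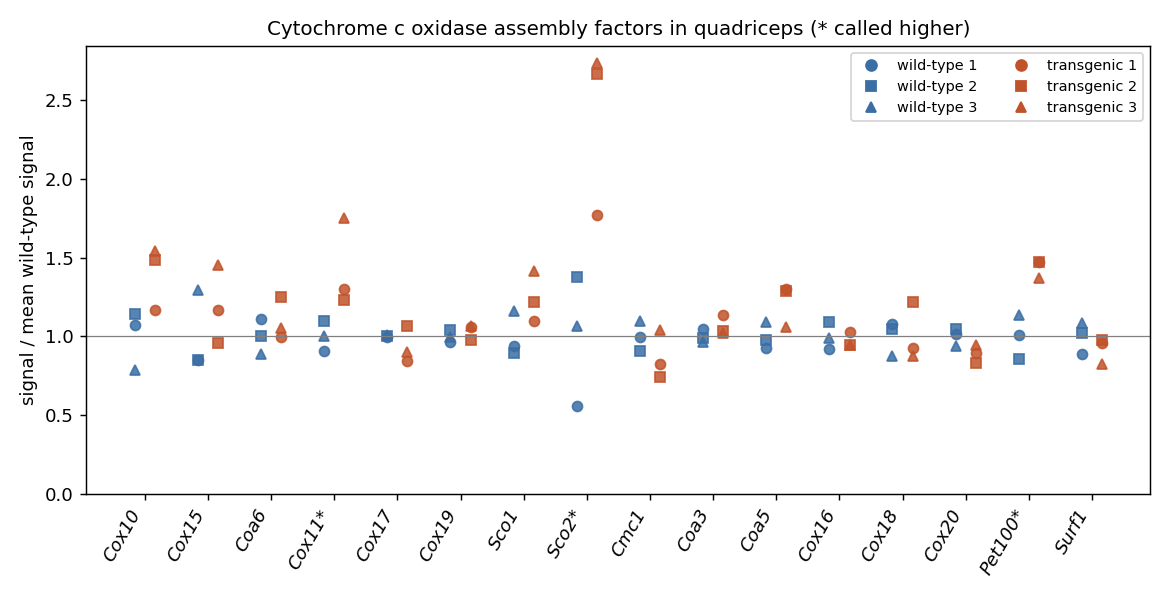
Signal of each array divided by the mean wild-type signal of the same gene, for the 16 tested assembly factor genes, with 1 symbol per mouse (wild-type blue, transgenic orange) and genes called higher marked by *. Sco2, Pet100, Cox11 and Cox10, 4 of the 16, have all transgenic mice above all wild-type mice, against 18.6% of all genes tested. The other genes overlap.

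Genes that serve the enzyme but carry other names were taken from a separate list of 21, of which 13 were tested. The test called 5 of them higher and 0 lower, against 7.65% and 5.75% of all genes tested. The median difference over the 13 was 0.43, against 0.03 over all genes. Ndufa4, a subunit long assigned to complex I and now to cytochrome c oxidase, measured 6620, 6518 and 6103 in the wild-type mice against 8900, 10080 and 8080 in the transgenic mice (0.49, SE 0.10, limma adjusted p = 0.0114). Slc25a3, the mitochondrial phosphate carrier, which also brings copper into the matrix, rose by 0.47 (SE 0.09). Lrpprc, which stabilises mitochondrial messenger RNA, rose by 0.46 (SE 0.11), Smim20, a factor in early assembly, by 0.43 (SE 0.10), and Chchd7, a twin cysteine protein, by 0.44 (SE 0.11). Cytochrome c itself (Cycs), the electron donor, had wild-type signals of 16867, 15507 and 15203 and transgenic signals of 18510, 17297 and 20018 and did not pass (0.23, SE 0.09, limma adjusted p = 0.142).

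The subunits were also set beside those of the other complexes. Of the genes tested, 26 of 35 rose in complex I (Ndufa4 counted there too), 3 of 4 in complex II, 7 of 9 in complex III and 14 of 17 in complex V, and none fell. The median differences were 0.44, 0.38, 0.47 and 0.41, against 0.33 for the 15 cytochrome c oxidase subunits. The complex I genes were taken by symbol, so the 26 called include Ndufa4 and also Ndufa4l2, its relative by name. The differences of these shares and medians were not tested. The 15 subunits include the tissue isoforms Cox4i2 and Cox8c, Cox7c with its dim probe set, and the isoforms Cox6a1 and Cox8a, which were high on wild-type 3. The largest difference among the cytochrome c oxidase subunits, 0.61 for Cox4i1, can be read beside 1.08 for Uqcrq and 0.69 for Uqcrc2 of complex III, 0.74 for Ndufv1 of complex I, 0.76 for Sdhb of complex II and 0.70 for Atp5g1 of complex V.

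**Figure D5:**
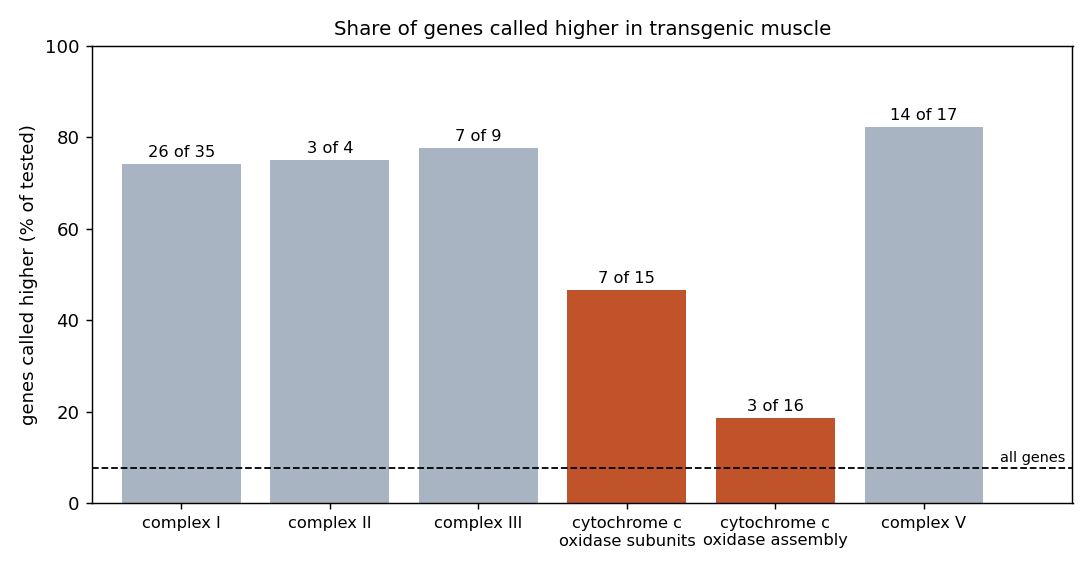
Share of tested genes called higher in transgenic muscle (bars, % of genes tested, with the counts above) for the respiratory chain complexes, with cytochrome c oxidase in orange. The dashed line is the share of all genes tested, 7.65%, and 7 of 15 cytochrome c oxidase subunits and 3 of 16 assembly factors were called, against 14 of 17 in complex V.

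The size of these differences depends on the scaling of the arrays, which is 1 factor per array. Over all probe sets, 1721 were called higher and 1394 lower, and after scaling each array to a common median of the tested probe sets the counts were 1355 and 1772. Under that scaling 6 cytochrome c oxidase genes were called higher and 0 lower. The subunit signals lie within the brightest probe sets of the arrays: the 9 subunit genes of all tissues and of muscle with a mean signal above 4000, a limit set after the values were seen, are all above the 99th percentile. The differences of these 9 were 0.25 (Cox8b) to 0.61 (Cox4i1). They were 0.18 to 0.55 under median scaling and 0.11 to 0.49 after quantile normalization, with Cox8b and Cox4i1 again at the ends. After quantile normalization Cox7a2 was at 0.18 and Cox5a at 0.21, and neither passed (limma adjusted p = 0.134 and 0.0941).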

How the data were processed

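Total RNA of 6 quadriceps samples was labelled with biotin and hybridised to Affymetrix arrays, per the labels' protocols. The authors deposited MAS5 signals (probe set intensity, not logged), per the submitters' processing notes, with parameters not given in the sources used here. A trimmed mean of every array, leaving out the highest and lowest 2% of probe sets, was 200.0. Signals were taken as log2(signal + 16), which understates changes of dim probe sets. Of 45101 probe sets, 64 controls were left out, and 26995 with a mean signal above the 40th percentile (37.8) were tested, including 53 of the 65 members. Genotypes were compared with limma 3.58.1 (lmFit and eBayes with an intensity trend, R 4.3.3), with two-sided p adjusted by Benjamini-Hochberg across every probe set tested. A gene was its brightest tested probe set. The test was tried on simulated data, where it recovered 71 of 100 changes of 2-fold and 99 of 100 of 4-fold. Of its 174 calls there, 4 were false. Smaller changes were not simulated, so a gene that did not pass is not shown to be unchanged. Isoform ratios were compared by exact permutation. Gene names come from the platform annotation, and all 33 genes matched the RefSeq gene table by Entrez identifier. Promoters were matched by symbol for 25 genes. Where probe sets lie, and whether they detect pseudogenes or near-identical copies, was not examined, and detection calls were not analysed here. Means ± SD are of signals, and only the number of arrays limits the precision given. All members and listed genes could be named, with the Esrrg probe sets and the 2 largest called differences of each other complex. Members, lists and motifs were chosen with earlier results of these data known, and the motifs after seeing these values. Python 3.11.15 with matplotlib 3.10.9 made the plots.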

Additional observations from a re-analysis of the deposited data

How the results depend on the processing

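The count of 10 changed cytochrome c oxidase genes (7 subunits and 3 assembly factors) was 5 with no filter on low signal (3 subunits), 6 with median scaling (4 subunits), and 2 without the intensity trend in eBayes (2 subunits and 0 assembly factors), where the count over all probe sets went from 3115 to 1584. It was 8 after quantile normalization, 9 with a constant of 1, 10 with 64 or with robust eBayes, and 11 with the filter at the 60th percentile or with all probe sets of a gene averaged. With probe sets whose identifiers hold no s or x suffix it was 10, of which 9 were also called in the main run. Cox15 was gained, and Sco2, whose only probe set has the s suffix, could not be called. With single arrays left out it ranged from 4 to 9, with subunits from 3 to 7, assembly factors from 0 to 2, and all probe sets from 1705 to 3301. No cytochrome c oxidase gene was called lower under any of these alternatives. No pairing of the mice by replicate number is stated in the labels. Same-numbered mice had correlations of 0.07, -0.08 and -0.02 between their deviations from the group means, and other combinations had -0.09 to 0.11. With 3 mice per genotype these values cannot settle whether the mice were paired. With the number as a replicate block, 7 genes were called, without Cox5b, Cox7a2 and Cox11, and 2744 probe sets in all. At the brightest probe sets, the change in Cox6a2 over Cox6a1 ranged from 0.02 to 0.93 with single arrays left out. That in Cox7a1 over Cox7a2 ranged from -0.07 to 0.08, and that in Cox8b over Cox8a from -0.35 to 0.30. With the other Cox8a probe set, without the x suffix, the last was 0.39, and with quantile normalization -0.07. The causes were not tested.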
